A study of Mus musculus with 8 samples.

Results

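Activated T cells take up amino acids through a set of plasma membrane carriers, and 8 genes of that set were followed in regulatory T cells (Tregs): Slc7a5, Slc3a2, Slc1a5, Slc38a1, Slc38a2, Slc7a1, Slc7a6 and Slc1a4. They were chosen by symbol, as known carriers of activated T cells, from the 55011 gene symbols of the count table, and all 8 were found there. Tregs are CD4 T cells that express the transcription factor Foxp3 and restrain immune responses. The 8 RNA sequencing libraries came from skin and spleen of mice that were 2 weeks old by the series' design text and at day 13 by the sample titles. WT stands for Pparg+/+ Foxp3-Cre and KO for Ppargf/f Foxp3-Cre, with no treatment, so the controls carry the Cre transgene as well. Foxp3-Cre acts in cells that express Foxp3, and Pparg encodes the nuclear receptor PPARγ, which responds to fatty acids. Each of the 4 combinations of genotype and tissue had 2 libraries, each made from 1000 sorted cells. How many animals went into a library is not in the labels, so the spread behind each p-value is that between these samples, which may be partly technical.

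The protein of Slc3a2, the CD98 heavy chain, carries light chains to the cell surface. The protein of Slc7a5 (LAT1) is the light chain that exchanges leucine and other large neutral amino acids, and that of Slc7a6 is a light chain that exchanges cationic for neutral amino acids. Slc7a1 encodes a carrier of arginine and lysine. Slc38a1 and Slc38a2 encode sodium-coupled carriers of glutamine, alanine and other small neutral amino acids, Slc1a5 encodes the exchanger ASCT2, which takes glutamine, and Slc1a4 encodes the related exchanger ASCT1 for alanine, serine and cysteine. In T cells, leucine and arginine feed signalling through the kinase complex mTORC1, MYC is known to raise several of these genes after receptor stimulation, and amino acid shortage raises others through the kinase GCN2 and the factor ATF4.

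RefSeq start-site windows (build GRCm38.p6, 250 bases before to 50 after each start) matched 5 of the 8 genes, Slc3a2, Slc38a2, Slc7a1, Slc7a6 and Slc1a4, with 7 windows in all. Slc7a5, Slc1a5 and Slc38a1 had no entry. The 250 bases before the start are shown for Slc38a2 and Slc7a1, which both differed between the tissues in each genotype. Of these bases, 2 (Slc38a2) and 0 (Slc7a1) lie in exons of the gene. Slc3a2 also differed in each genotype, but 169 of its 250 bases lie in its exons. So do all 250 bases of another Slc7a1 window, and neither of those stretches is shown. A stretch of 60 bases is shown for Slc1a4, which held the 1 motif match, marked in capitals. All 3 lie on the minus strand and are written 5′ to 3′ along the gene.
Slc38a2, chr15:96699729-96699978: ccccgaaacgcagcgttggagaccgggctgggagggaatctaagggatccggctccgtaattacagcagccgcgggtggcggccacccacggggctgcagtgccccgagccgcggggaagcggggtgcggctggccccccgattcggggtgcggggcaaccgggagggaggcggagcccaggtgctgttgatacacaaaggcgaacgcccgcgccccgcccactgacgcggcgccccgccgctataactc
Slc7a1, chr5:148399905-148400154: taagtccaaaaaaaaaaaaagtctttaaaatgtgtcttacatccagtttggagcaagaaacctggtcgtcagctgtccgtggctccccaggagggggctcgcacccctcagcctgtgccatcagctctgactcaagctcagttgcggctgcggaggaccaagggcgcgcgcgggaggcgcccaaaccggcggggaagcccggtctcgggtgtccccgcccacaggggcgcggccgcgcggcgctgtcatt
Slc1a4, chr11:20332710-20332769: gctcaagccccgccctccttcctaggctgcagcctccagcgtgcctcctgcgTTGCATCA
The motifs searched on both strands were the E-box CACGTG, the site that MYC can bind, and TGATGNAA, the CEBP-ATF response element. In the 250 bases before the start, 0 of the 7 windows held either motif, against 6.02% (CACGTG) and 3.45% (TGATGNAA) of all 32851 windows. The search was then widened to all 300 bases after a match across the start of Slc1a4 had been seen. In that wider window the Slc1a4 match, on the opposite strand from -4 to 4 around the start, was the only one, and 7.15% and 3.97% of all windows held CACGTG and TGATGNAA. The other 6 windows do not have these letters, which says nothing about the factors. The genes lie, in mm10 with GENCODE M21, on chromosome 8 (Slc7a5, 121881150 to 121907694, and Slc7a6, 106168857 to 106198706), chromosome 19 (Slc3a2, 8706882 to 8723369), chromosome 7 (Slc1a5, 16781340 to 16798274), chromosome 15 (Slc38a1, 96571418 to 96642913, and Slc38a2, 96687392 to 96699730), chromosome 5 (Slc7a1, 148327410 to 148399904) and chromosome 11 (Slc1a4, 20302180 to 20332713). No exon base of the 8 genes overlapped an exon of another gene. The share of 25-base words, the read length, that also occur in transcripts of other genes was 8.62% for Slc38a1, 4.3% for Slc3a2, 1.25% for Slc7a1 and under that for the others.

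Library totals were 3115832 to 4466963 counts, with 17262 to 19274 genes detected, and 12414 genes passed the filter on low counts. Levels are CPM, each library's counts scaled to a common library size with TMM, a normalization to the bulk of the genes, as mean ± SD over n = 2 libraries. A gene was called where edgeR's quasi-likelihood test gave an adjusted p under 0.05. Pparg was at 75.7 and 59.8 CPM (WT skin), 8.46 and 13.3 (KO skin), 22.5 and 12.3 (WT spleen) and 2.16 and 1.66 (KO spleen), with no overlap of the genotypes in either tissue. Xist was found in replicate 1 and the Y-linked gene Ddx3y in replicate 2 of every group, so sex differs within each group. The 2 libraries of a group thus came from different animals, and their spread includes any sex difference. Replicate number and sex coincide, so a replicate block is also a sex block, and leaving out a library leaves 1 sex in its group. Foxp3 was present at 174 to 380 CPM and Cd4 at 533 to 637 CPM in every library. Of the 8 transporter genes, 7 passed the filter, and Slc1a4 did not.

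The 8 genes spanned a wide range of levels. Per kilobase of the longest annotated transcript, Slc3a2 led in WT skin at 183 ± 27.5 CPM per kb (SD, n = 2). It was followed there by Slc1a5 at 96.0 ± 18.8, Slc38a2 at 87.1 ± 6.29, Slc38a1 at 43.1 ± 2.40, Slc7a1 at 15.1 ± 0.975, Slc7a6 at 10.8 ± 0.319, Slc7a5 at 1.74 ± 0.973 and Slc1a4 at 0.991 ± 0.376 CPM per kb. In WT skin the neighbours Slc1a5 and Slc38a2 overlapped in their libraries, as did Slc7a5 and Slc1a4. The light chain Slc7a5 thus measured far below its partner Slc3a2 in each library. In WT spleen Slc1a5 came first at 101 ± 1.21 CPM per kb, ahead of Slc3a2 at 52.3 ± 3.72, Slc38a1 at 29.7 ± 1.86, Slc38a2 at 15.8 ± 2.06, Slc7a6 at 13.8 ± 0.0811 and Slc7a1 at 4.55 ± 0.0650. KO skin kept the WT skin order and KO spleen kept the WT spleen order. On lengths of all merged exons, Slc7a6 came before Slc38a2 in WT spleen and before Slc7a1 in KO skin, and Slc38a2 before Slc38a1 in KO spleen, so those neighbours have no firm order.

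**Figure D1:**
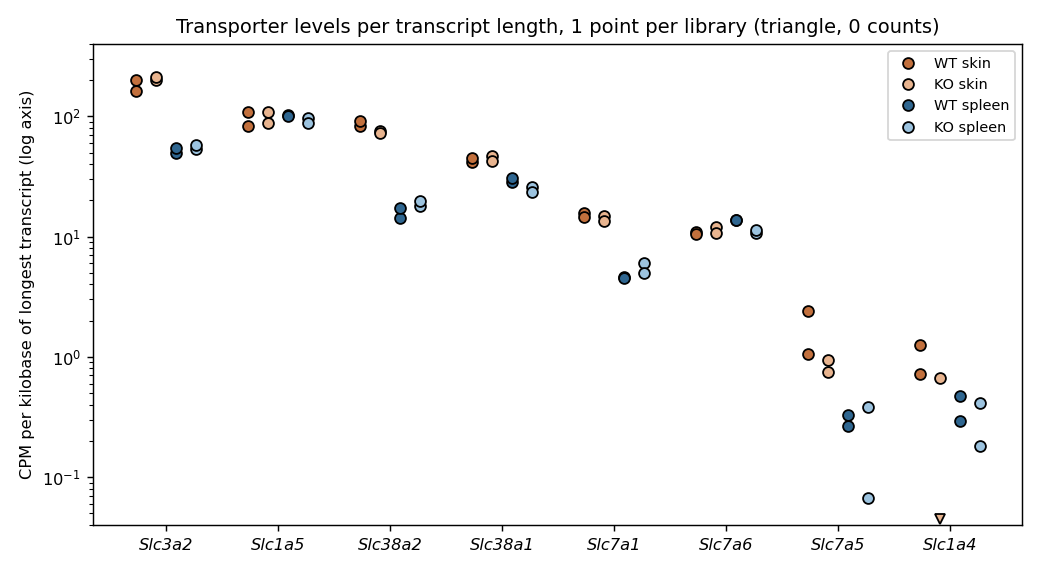
CPM per kilobase of the longest transcript (log axis) for the 8 transporter genes, 1 point per library and colours for the 4 groups; a triangle marks the library with 0 counts of Slc1a4. Slc3a2 and Slc38a2 are separated by tissue, Slc1a5 and Slc7a6 lie close together in all groups, and Slc7a5 and Slc1a4 lie lowest.

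The first comparison asked how skin Tregs differ from spleen Tregs with Pparg intact. Of the 7 tested transporter genes, 5 were called higher in WT skin (Slc38a2, Slc3a2, Slc7a1, Slc7a5 and Slc38a1) and 0 lower. The other two, Slc1a5 and Slc7a6, did not pass. Among all tested genes, 16.6% were called higher and 15.2% lower, and the median log2 fold change was 1.72 over the 7 transporter genes against -0.04 over all genes. In KO, 4 of the 7 were called higher in skin (Slc38a2, Slc3a2, Slc7a1 and Slc38a1) and 0 lower, against 16.3% and 12.7% of all genes, with medians of 1.35 and -0.03. Those 4 genes were called in 15 of 15 alternative settings in each genotype. Both skin libraries were above both spleen libraries for 5 of the 7 genes in each genotype. The shares of all tested genes were 32% in WT and 31.9% in KO. Both were below for 1 gene in WT (Slc7a6) and 0 in KO, against 34.6% and 33.3% of all tested genes. Slc7a5 reached 10 counts in skin libraries only, so it passed the filter on low counts through the tissue where it is higher. Its call, and its place in the counts and medians over the 7 genes, is therefore no independent support. These are levels in sorted bulk samples, in which fewer cells that express a gene and less RNA per cell cannot be told apart.

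The CD98 heavy chain gene Slc3a2 was at 459 and 569 CPM (WT skin), 570 and 600 (KO skin), 140 and 154 (WT spleen) and 151 and 164 (KO spleen). Every skin library was above every spleen library. It was 3.48-fold higher in skin in WT (log2 fold change 1.80 ± 0.125 SE, edgeR adjusted p = 4.80e-09) and 3.70-fold higher in KO (1.89 ± 0.124, edgeR adjusted p = 2.74e-09). Its partner Slc7a5 rested on few reads, with 15 and 24 counts (WT skin), 10 and 11 (KO skin), 4 and 4 (WT spleen) and 5 and 1 (KO spleen). In CPM these were 3.70 and 8.54, 2.64 and 3.32, 0.936 and 1.15, and 1.35 and 0.237. Each skin library lay above each spleen library, and the WT skin libraries differed from each other more than the KO skin ones. Summed over the 2 libraries, the 39 counts of WT skin have an exact Poisson 95% interval of 27.7 to 53.3 and the 8 of WT spleen one of 3.45 to 15.8, for counting error only. Slc7a5 was 4.17-fold higher in WT skin (2.06 ± 0.719, 95% interval 1.46 to 11.9-fold, edgeR adjusted p = 0.0363) and did not pass in KO (1.42 ± 0.701, 0.961 to 7.44-fold, edgeR adjusted p = 0.144). The difference between the genotypes in this effect did not pass (edgeR adjusted p = 0.95). The WT call ended with DESeq2 (log2 fold change 2.57, adjusted p = 0.0504) and without WT skin replicate 2, WT spleen replicate 1 or WT spleen replicate 2 (1.44, 1.97 and 2.18, edgeR adjusted p = 0.275, 0.173 and 0.121).

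The other light chain gene, Slc7a6, was at 41.2 and 39.5 CPM (WT skin), 44.9 and 39.8 (KO skin), 52.0 and 51.5 (WT spleen) and 40.5 and 42.7 (KO spleen). The WT spleen libraries were the highest and the remaining 6 lay together. Its tissue difference did not pass in WT (log2 fold change -0.35 ± 0.201 SE, 0.584 to 1.05-fold, edgeR adjusted p = 0.196) or in KO (0.03 ± 0.201, 0.760 to 1.37-fold, edgeR adjusted p = 0.939). With transcript lengths constant across libraries, the ratio of Slc3a2 to Slc7a6 in CPM was 11.2 and 14.4 (WT skin), 12.7 and 15.1 (KO skin), 2.69 and 3 (WT spleen) and 3.73 and 3.84 (KO spleen). The heavy chain transcript was thus higher against this light chain in every skin library than in any spleen library. The ratio of Slc3a2 to Slc7a5 was 66.6 to 216 in skin and 112 to 691 in spleen, ranges that overlap.

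The arginine carrier gene Slc7a1 was at 113 and 104 CPM (WT skin), 107 and 95.9 (KO skin), 33.0 and 32.3 (WT spleen) and 43.2 and 35.8 (KO spleen). Skin and spleen did not overlap. The difference was 3.29-fold in WT (log2 fold change 1.72 ± 0.181 SE, edgeR adjusted p = 9.98e-07) and 2.55-fold in KO (1.35 ± 0.178, edgeR adjusted p = 1.46e-05).

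Among the small neutral amino acid carriers, Slc38a2 differed between the tissues in both genotypes. Its levels were 505 and 560 CPM (WT skin), 460 and 442 (KO skin), 87.5 and 105 (WT spleen) and 109 and 120 (KO spleen). It was 5.50-fold higher in WT skin (log2 fold change 2.46 ± 0.127 SE, edgeR adjusted p = 1.03e-10) and 3.91-fold higher in KO skin (1.97 ± 0.125, edgeR adjusted p = 1.65e-09). In WT, 97.5% of all tested genes had a lower log2 fold change. The related gene Slc38a1 was at 301 and 326 CPM (WT skin), 343 and 307 (KO skin), 206 and 225 (WT spleen) and 186 and 170 (KO spleen). Its skin libraries were all above its spleen libraries, by a smaller step of 1.45-fold in WT (0.54 ± 0.119, edgeR adjusted p = 0.00209) and 1.82-fold in KO (0.87 ± 0.120, edgeR adjusted p = 2.56e-05). The ratio of Slc38a2 to Slc38a1 in CPM was 1.68 and 1.72 (WT skin), 1.34 and 1.44 (KO skin), 0.425 and 0.468 (WT spleen) and 0.586 and 0.708 (KO spleen), so their balance differed between the tissues in both genotypes.

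The glutamine exchanger gene Slc1a5 was at 232 and 307 CPM (WT skin), 304 and 248 (KO skin), 287 and 282 (WT spleen) and 271 and 249 (KO spleen). The 4 groups overlapped, apart from KO spleen, whose libraries were both below those of WT spleen. Its tissue difference did not pass in WT (log2 fold change -0.08 ± 0.139 SE, 0.772 to 1.16-fold, edgeR adjusted p = 0.705) or in KO (0.09 ± 0.138, 0.867 to 1.30-fold, edgeR adjusted p = 0.689). Slc1a4 had 20 and 8 counts (WT skin), 10 and 0 (KO skin), 8 and 4 (WT spleen) and 6 and 3 (KO spleen), at most 4.93 CPM. The 0 counts of KO skin replicate 2 allow up to 0.905 CPM, the level of 3 counts in that library. Fitted without the filter, none of its 6 comparisons passed (edgeR adjusted p = 0.534 to 1).

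**Figure D2:**
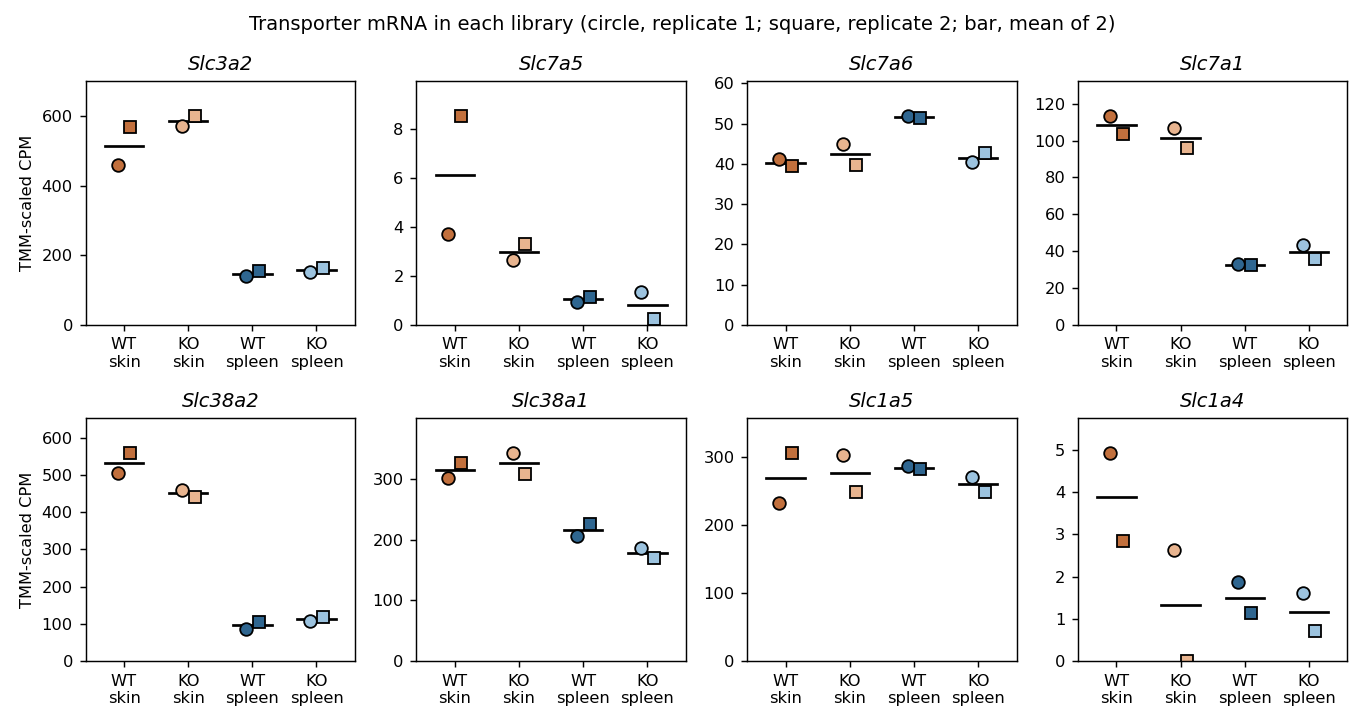
TMM-scaled CPM of the 8 transporter genes in each library (circle, replicate 1; square, replicate 2; bar, mean of 2), by group, each panel with its own linear axis from 0. Slc3a2, Slc7a1, Slc38a2, Slc38a1 and, at few counts, Slc7a5 have all 4 skin libraries above all 4 spleen libraries, whereas those of Slc1a5 overlap. Within a genotype, 32% (WT) and 31.9% (KO) of all tested genes have both skin libraries above both spleen libraries.

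**Figure D3:**
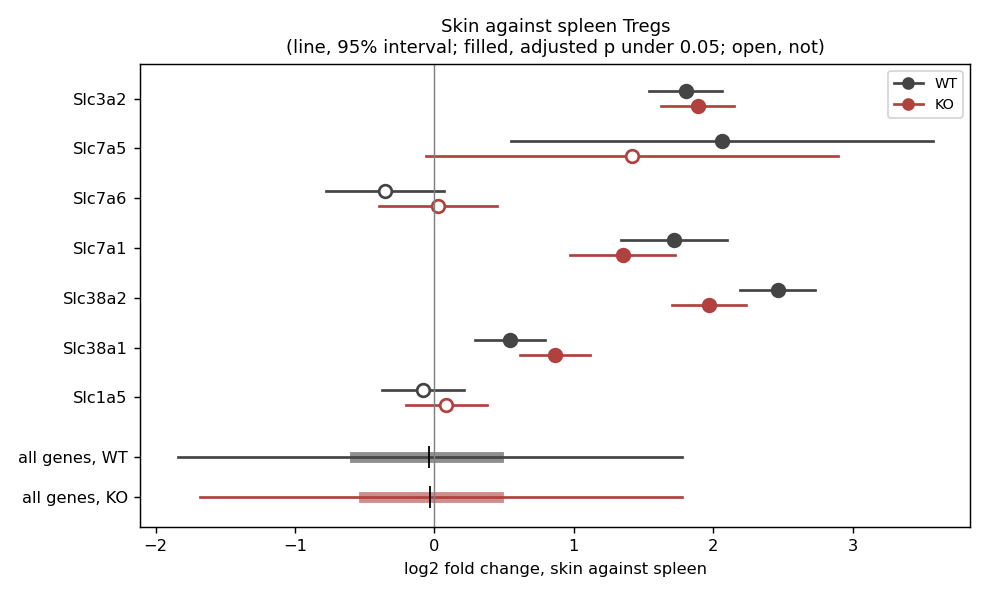
Log2 fold change of skin against spleen for the 7 tested transporter genes in WT and KO, with 95% intervals (filled, adjusted p under 0.05); below, all tested genes, with the middle 50% as a box and 5% to 95% as a line. Slc38a2, Slc3a2 and Slc7a1 lie beyond the middle 50% of all genes, and the interval of Slc7a5 is the widest.

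Skin and spleen libraries also differed in genes that respond to tissue dissociation. Of 32 tested genes of that list, 23 were called higher and 3 lower in WT skin, and 25 and 3 in KO skin. The shares of all tested genes were 16.6% and 15.2% in WT, and 16.3% and 12.7% in KO. The list summed to 24190 to 33020 CPM in the skin libraries, WT above KO, and 4984 to 5378 CPM in the spleen libraries. Its heat shock member Hspa1a was at 444 to 845 CPM in skin and had 0 counts in each spleen library. Hspa1a, Hspa1b, Atf3 and Klf4 passed the filter on low counts through skin, the tissue where they are higher. Any call of these genes between the tissues is therefore no independent support. The part of this list in the transporter result was not tested.

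Markers of other cells were mostly near 0. For the counts called below, the shares of all tested genes were 16.6% higher and 15.2% lower in WT skin. They were 16.3% and 12.7% in KO skin. Summed B cell markers were at 18.2 to 33.8 CPM in skin and 27.8 to 50.1 in spleen, with Ms4a1 and Pax5 at 0 in skin; 0 of 3 tested were called higher and 2 lower in WT skin. CD8 T and NK cell markers summed to 9.96 to 35.0 CPM in skin and 21 to 28.6 in spleen, with 0 of 3 called in WT. Myeloid and dendritic cell markers summed to 239 to 307 CPM in skin and 228 to 328 in spleen, with Lyz2 at most 2.11 CPM and H2-Aa at 41.5 CPM in KO skin replicate 1 against at most 2.41 elsewhere; 1 of 6 was called higher and 2 lower in WT skin. Ctss, which made up most of that sum, was lower in WT skin than in WT spleen (145.5 and 139 against 216 and 261 CPM, edgeR adjusted p = 0.000844). Xcr1 was 16.1-fold higher there (90.8 and 87.2 against 7.72 and 2.00 CPM, edgeR adjusted p = 1.12e-05) and was at 15.3 and 6.34 CPM in KO skin. Other members of that list did not follow Xcr1. Clec9a was at 0 in each skin library, and Flt3 was at 0 in WT skin and at 1.85 and 2.11 CPM in KO skin. Keratinocyte markers summed to 109 to 170 CPM in skin and 26.2 to 51.2 in spleen, of which Epcam made up 102 to 160 CPM in skin, with Krt5 at most 0.905 CPM; 1 of 2 was called higher. Fibroblast and endothelial markers summed to 103 to 155 CPM in skin and 277 to 376 in spleen, mostly Pecam1, with Pdgfra and Lum at 0; 1 of 2 was called higher and 1 lower. Mast cell markers summed to 15.8 to 22.1 CPM in skin and 0.712 to 2.81 in spleen, where Kit was the 1 tested gene, called higher in skin, and Mcpt4, Cma1, Tpsb2 and Fcer1a were at 0. Erythroid and platelet markers summed to 0.302 to 1.85 CPM in skin and 4.98 to 10.3 in spleen, with 2 of 2 called lower in WT skin. Over the alternatives, the number called lower in WT skin ran from 0 to 3 for B cell, 1 to 2 for myeloid and 0 to 2 for erythroid markers. Between tissues in KO, 0 of 3 B cell markers were called, and 1 of 3 CD8 T and NK cell markers was called higher in skin. Of that CD8 T and NK list, Klrk1 was at 2.11 and 10.3 CPM in KO skin and 0 in KO spleen. Cd8a was at 7.66 CPM in KO skin replicate 1. Of 6 myeloid markers, 2 were called higher and 1 lower in KO skin, and of 2 erythroid markers 0 higher and 1 lower. Of these markers, Kit, Klrk1, Col1a1, Xcr1 and H2-Ab1 passed the filter on low counts through skin. Cd79a, Cr2, Hbb-bs and Alas2 passed it through spleen. Any call of these genes between the tissues is therefore no independent support. The part of these markers in the transporter result was not tested.

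The second question was what the loss of Pparg changed in these transporters. In skin, 0 of the 7 tested genes passed, against 0.894% of all tested genes, of which 0.588% were lower in KO. In spleen, 0 of 7 passed, against 0.282%, of which 0.274% were lower. Averaged over both tissues, 0 of 7 passed against 0.789%, and for the difference between the tissues 0 of 7 against 0.0967%. With shares this small, a count of 0 among 7 is near the background. At an unadjusted p under 0.05 in edgeR's fit across all genes, 1 gene remained in spleen (Slc38a1) and 1 for the difference between tissues (Slc38a2), both named after their values were seen, and none in skin or in the average. Of all 12414 tested genes, 972 were under 0.05 in spleen, 1178 for the difference, 1342 in skin and 1172 in the average. A count of 1 among 7 is therefore near the background as well.

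In skin, the log2 fold change of KO against WT was 0.19 ± 0.119 SE for Slc3a2 (0.957 to 1.36-fold), 0.07 ± 0.203 for Slc7a6 (0.781 to 1.41-fold), -0.10 ± 0.170 for Slc7a1 (0.728 to 1.20-fold) and -0.24 ± 0.119 for Slc38a2 (0.712 to 1.01-fold). It was 0.05 ± 0.118 for Slc38a1 (0.873 to 1.23-fold) and 0.04 ± 0.139 for Slc1a5 (0.838 to 1.26-fold), so the 95% intervals of these 6 genes exclude a 2-fold change in either direction. The edgeR adjusted p ran from 0.487 to 0.959. That of Slc7a5, -0.90 ± 0.700 (0.193 to 1.49-fold, edgeR adjusted p = 0.704), does not: at its few counts, a difference of that size was not detectable. Both KO skin libraries were above both WT skin libraries for 1 gene, Slc3a2, by a margin of 570 against 569 CPM. Both were below for Slc7a5 and Slc38a2, against 20.1% and 19.8% of all genes that did not overlap upward and downward.

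In spleen, the log2 fold change was 0.10 ± 0.124 SE for Slc3a2 (0.894 to 1.28-fold), -0.31 ± 0.198 for Slc7a6 (0.603 to 1.08-fold), 0.27 ± 0.185 for Slc7a1 (0.919 to 1.58-fold) and 0.25 ± 0.126 for Slc38a2 (0.992 to 1.43-fold). It was -0.27 ± 0.120 for Slc38a1 (0.695 to 0.985-fold) and -0.13 ± 0.138 for Slc1a5 (0.748 to 1.12-fold), again with 2-fold outside these 6 intervals. The edgeR adjusted p ran from 0.578 to 0.958. Slc7a5 was at -0.26 ± 0.664 (0.317 to 2.20-fold, edgeR adjusted p = 0.980). Both KO spleen libraries were above both WT ones for Slc38a2 and Slc7a1 and below for Slc1a5, Slc38a1 and Slc7a6, against 18.8% and 19.9% of all genes.

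For Slc38a2, both KO libraries were below both WT libraries in skin and above them in spleen. The tested difference of the 2 genotype effects was -0.49 ± 0.173 SE on the log2 scale (edgeR adjusted p = 0.315) and did not pass.

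**Figure D4:**
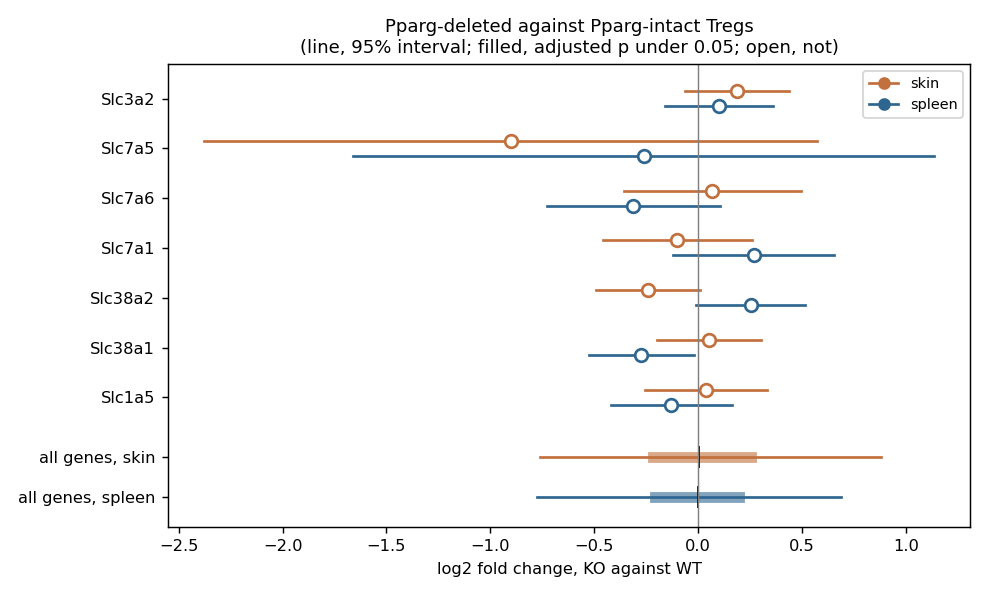
Log2 fold change of KO against WT for the 7 tested transporter genes in skin and spleen, with 95% intervals (open, adjusted p not under 0.05); below, all tested genes, with the middle 50% as a box and 5% to 95% as a line. All 14 points are open, and only the interval of Slc7a5 extends past a 2-fold change, in both tissues.

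The other genes of amino acid uptake and use were read from lists. For skin against spleen, the shares of all tested genes called higher and lower were 16.6% and 15.2% in WT, and 16.3% and 12.7% in KO. Among 23 other plasma membrane amino acid transporters, 8 were tested, and in WT skin 0 were called higher (0 to 1 over the alternatives) and 1 lower, Slc43a1, which encodes a neutral amino acid carrier (3.62-fold lower, log2 fold change -1.86 ± 0.358 SE, edgeR adjusted p = 0.00119). In KO skin, Slc16a10, a carrier of aromatic amino acids, and Slc6a6, the taurine carrier, were called higher, and Slc43a1 lower. The call of Slc6a6 ended when replicate 1 of either KO group was left out (edgeR adjusted p = 0.101 and 0.108). Of 16 lysosomal and mitochondrial carriers, 2 were called higher and 3 lower in WT skin, near the 16.6% and 15.2% of all tested genes. Slc15a3, a lysosomal peptide and histidine carrier, was higher, at 33.3 and 38.8 CPM in WT skin against 0.702 and 1.72 in WT spleen. It passed the filter on low counts through skin, so its call is no independent support. The number called higher was 1 when any single WT library was left out. The number called lower ran from 2 to 5 and was 5 without WT skin replicate 1 or with upper-quartile scaling.

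Of 14 tested genes of the GCN2 and ATF4 amino acid response, 7 were called higher and 0 lower in WT skin. The shares of all tested genes, also for the enzymes below, were 16.6% and 15.2%. For both lists, the number called higher in WT skin was smaller in some alternatives. The list's median log2 fold change was 0.64. Atf4 itself, which is also controlled by translation, was at 354 and 351 CPM in WT skin and 105 and 116 in WT spleen, 3.17-fold higher (edgeR adjusted p = 1.80e-08). Gpt2, an alanine aminotransferase, was 14.1-fold higher, Ddit4, an inhibitor of mTORC1 signalling, 3.08-fold, and Psat1, of serine synthesis, 1.98-fold. Gpt2 is also among the enzymes below and is counted in both lists. In KO skin 7 were again called higher and 0 lower, against 16.3% and 12.7% of all tested genes. Of 24 enzymes of glutamine, branched-chain, arginine and methionine metabolism, 8 were called higher and 2 lower in WT skin (0 to 2 lower over the alternatives, 0 without replicate 1 of either WT group), with Got1, an aspartate aminotransferase, 5.44-fold, Odc1, of polyamine synthesis, 4.70-fold, and Glul, glutamine synthetase, 2.74-fold higher.

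In the amino acid sensing and mTORC1 list, 6 of 35 genes were called higher and 5 lower in WT skin, near the 16.6% and 15.2% of all tested genes. Eif4ebp1, a translation repressor that mTORC1 phosphorylates, was 2.90-fold and Rheb, the GTPase that activates mTORC1, 1.64-fold higher. Sesn1, a sestrin that restrains mTORC1, was 2.36-fold and Mios, of the GATOR complex, 2.50-fold lower. In the MYC network, 2 of 10 genes were called higher and 1 lower in WT skin, near the 16.6% and 15.2% of all tested genes. The higher ones were Mxi1 (4.16-fold) and Mxd3 (1.80-fold), which encode MAX partners. The call of Mxd3 ended in 5 of 15 alternatives, namely no filter, DESeq2, and without WT skin replicate 2 or either WT spleen library (adjusted p of the 5 from 0.0569 to 0.218). Mga, another MAX partner, was called lower (1 to 2 genes over the alternatives), and Myc was at 64.9 and 37.7 CPM in WT skin against 146 and 85.0 in WT spleen and did not pass.

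**Figure D5:**
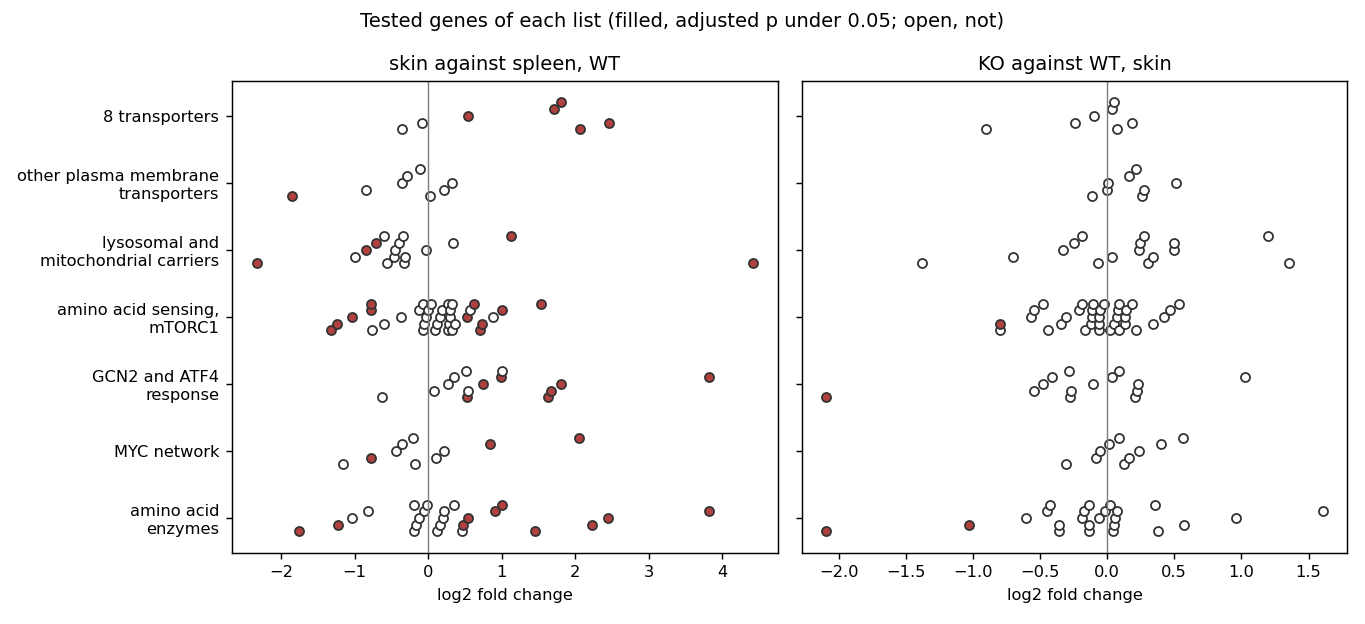
Log2 fold change of each tested gene of the 8 transporters and of 6 related lists, for skin against spleen in WT (left) and KO against WT in skin (right); filled points have an adjusted p under 0.05. In WT the 5 called transporters and the 7 called GCN2 and ATF4 genes all lie above 0, and the sensing list has called genes on both sides of 0; in the genotype panel few points are filled.

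Between genotypes, these list genes passed in skin or spleen. Among all tested genes, 0.306% were called higher and 0.588% lower in KO skin, and 0.00806% and 0.274% in KO spleen. In skin, Sesn1 was called lower in KO (from 218 ± 24.2 to 125 ± 20.1 CPM, SD, n = 2; log2 fold change -0.79 ± 0.128 SE, edgeR adjusted p = 0.00453), a call that ended when replicate 1 of either skin group was left out (edgeR adjusted p = 0.0679 and 0.113). Glul was called lower (-1.03 ± 0.230, edgeR adjusted p = 0.0395), which ended without WT skin replicate 1, KO skin replicate 1 or KO skin replicate 2 (edgeR adjusted p = 0.155 to 0.5). Gpt2 was called lower in skin (-2.09 ± 0.280, edgeR adjusted p = 0.00104) and in spleen (-2.49 ± 0.443, edgeR adjusted p = 0.0246). The spleen call of Gpt2 ended when replicate 1 of either spleen group was left out and in a fit to the spleen libraries alone (edgeR adjusted p = 0.0547 to 0.245). In skin, 6 of the 32 dissociation genes were also called lower in KO and 0 higher. That count ran from 0 to 11 over the alternatives, with 0 left without KO skin replicate 2, 1 without WT skin replicate 1 and 3 without KO skin replicate 1. Of the same 32 genes, 1 was called lower in KO spleen and 0 higher. The 1 was Dusp2 (-1.47 ± 0.227, edgeR adjusted p = 0.0109), a call that did not hold in all alternatives. Of 6 tested myeloid and dendritic cell markers, 1 was called higher in KO skin (Ctss, a protease gene, edgeR adjusted p = 0.0409) and 1 lower (the chemokine receptor gene Xcr1, 7.79-fold, edgeR adjusted p = 0.00395). Mean levels (SD, n = 2) of Ctss were 142 ± 4.51 CPM (WT skin) against 225 ± 48.5 (KO skin), and those of Xcr1 were 89.0 ± 2.53 against 10.8 ± 6.36. H2-Ab1 of the same list went the other way, at 4.19 and 3.91 CPM in WT skin and 47.6 and 6.64 in KO skin. The count of higher markers ran from 0 to 3 over the alternatives and was 0 when either WT skin library was left out. The part of these genes in the genotype values of the transporters was not tested. No gene of the other transporter lists or of the MYC network was called for genotype in skin or spleen.

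Genes with the most similar profile were ranked by the root mean square difference between log2 CPM values centred on each gene's mean, over the 8 libraries and 9619 genes. Near to Slc3a2 were Pclaf (0.129) and Aebp2 (0.130). Pclaf, which encodes a PCNA-binding protein of DNA replication, was at 86.6 to 100.4 CPM in skin, against 27.0 to 35.4 in spleen. Nearest to Slc1a5 were Washc5 (0.0555), Igbp1 (0.0631) and Nemf (0.0647), genes that varied little between the groups. Nearest to Slc7a5 were Slc35e4 (0.273), Tmem107 (0.289) and Slc43a3 (0.329), at larger distances. Among the transporter genes themselves, Slc7a1 (0.254) and Slc38a2 (0.255) were the nearest to Slc3a2, and Slc7a6 (0.165) the nearest to Slc1a5. The 8 libraries fall into 2 tissues, so these distances mostly carry the tissue difference.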

How the data were processed

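Sorted Tregs of 8 libraries were profiled. Per the labels' protocols, total RNA was primed with oligo(dT), the cDNA was amplified by limited PCR and tagmented, and 2 reads of 25 bases were sequenced. The authors deposited raw counts per gene symbol. STAR 2.7.3a, featureCounts and genome build mm10 are named, per the submitters' processing notes. Annotation, strandedness and the handling of multi-mapping reads were not given in the sources used here. Reads carry no molecular identifiers, so intervals on counts and floors of 3 counts cover counting error only.

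edgeR 4.0.16 (R 4.3.3) fitted 1 coefficient per group to all 8 libraries with TMM scaling, filterByExpr (minimum count 10), robust quasi-likelihood tests and Benjamini-Hochberg adjustment over 12414 genes (threshold 0.05), for 6 comparisons. Fold changes use a prior count of 2, which shrinks those of low genes; 95% intervals use the fit's degrees of freedom. The common biological coefficient of variation was 17.5%. Replicates differed beyond sampling noise (chi-square per degree of freedom 4.48 to 7.32).

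On simulated counts with 100 genes changed 2-fold and 100 changed 4-fold, all of higher expression than Slc7a5, the fit recovered 76 and 100 in the skin comparison (15 of 191 calls false), 79 and 100 in spleen (9 of 188), 78 and 100 between tissues in WT (5 of 183) and 75 and 98 in KO (8 of 181).

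The transporter genes and lists were chosen with earlier results of these data known. All transporter genes are named; of each list up to 4 called genes of smallest p were eligible, and Myc and some marker genes were added after their values were seen. The 3 most similar genes with a mean log2 CPM of at least 2 were ranked for Slc7a5, Slc3a2 and Slc1a5; 1 of them is not reported here. The length scale, the wider promoter window, an added prior count of 0.125 and the choice of background shares were settled after values were seen. Alternatives were RLE and upper-quartile scaling, no filter, a minimum count of 30, DESeq2 1.42.0, a replicate block, the compared groups alone, and each library left out.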

Additional observations from a re-analysis of the deposited data

Results flagged for a closer look

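Sesn1, of the amino acid sensing list, was the 1 named gene whose genotype effect differed between skin and spleen by the test of that difference. The log2 fold change of KO against WT in skin minus that in spleen was -1.025 ± 0.176 SE (edgeR adjusted p = 0.0257). Sesn1 was at 235 and 200 CPM (WT skin), 111 and 140 (KO skin), 491 and 538 (WT spleen) and 609 and 598 (KO spleen), so the KO libraries were lower in skin and higher in spleen. The call ended without WT skin replicate 1, KO skin replicate 1, WT spleen replicate 1 or WT spleen replicate 2 (edgeR adjusted p = 0.0867 to 0.14).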

How the results depend on the processing

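The counts of called transporter genes were within 1.5 times of those reported in 176 of 176 values over 15 alternative settings, and 0 genotype results of a transporter gene were called in any. By that rule a fall from 5 to 4 called genes is no change, so the loss of Slc7a5 in WT cannot show in it. The reported counts were 0 except for those called higher in skin against spleen. Of 608 values for single transporter genes, 583 kept their direction and their side of the threshold, 21 reversed direction and 4 lost the call, all 4 of them for Slc7a5 between tissues in WT. None of the reversed values was called. Under upper-quartile scaling the log2 fold change of Slc7a6 between tissues in KO was -0.0224. Over libraries left out, Slc1a5 ran from -0.153 to 0.248 for genotype in skin, -0.142 to 0.0584 averaged, -0.0228 to 0.379 for the difference between tissues, -0.287 to 0.111 between tissues in WT and -0.0643 to 0.230 in KO. Slc38a1 ran from -0.0301 to 0.129 and Slc7a6 from -0.0206 to 0.151 for genotype in skin, Slc38a2 from -0.0573 to 0.0783 averaged, Slc3a2 from -0.0580 to 0.250 and Slc7a5 from -1.17 to 0.100 for the difference between tissues, Slc7a5 from -1.01 to 0.261 in spleen, and Slc7a6 from -0.0598 to 0.116 between tissues in KO. The cause was not tested. With the added prior count of 0.125 the log2 fold change of Slc7a5 between tissues was 2.50 in WT and 1.90 in KO.

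Counts over all genes moved more. The 111 calls in skin became 344 with no filter and 29 to 209 with a library left out, and their split of 38 higher and 73 lower became 52 and 64 with upper-quartile scaling. The 35 in spleen became 154 with no filter, 82 with DESeq2 and 7 to 119 with a library left out. The 98 averaged became 288 and 49 to 142, and the 12 for the difference between tissues became 233 with no filter, 87 with DESeq2 and 1 to 146 with a library left out. Samples with the same replicate number deviated together weakly (correlations of 0.03 to 0.11, and -0.03 to 0.05 without sex-linked genes), so the numbers were not taken to pair them. With a replicate block the counts over all genes were 135 in skin, 51 in spleen, 109 averaged and 16 for the difference between tissues, and the counts of transporter genes stayed at 0 for genotype, 5 between tissues in WT and 4 in KO. Slc7a5 and Slc1a4, at a few counts per library, are limited by depth.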
